A study of Mus musculus with 16 samples.

Results

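Scavenger receptors take up modified lipoproteins, microbes, dying cells and spent plasma proteins at the macrophage surface. The 10 genes described here encode receptors of this kind and the mannose receptor: Msr1, Marco, Cd36, Scarb1, Scarb2, Olr1, Mrc1, Cd163, Stab1 and Lrp1. They were picked out by gene symbol, as a family of interest and with earlier results of these data known, and each was found on 1 row of the 47069 genes in the count table. In macrophages activated for 1 hr, 8 of the 10 genes were lower with a γ-secretase inhibitor, as were 21.9% of all genes tested. Marco was higher, as were 19.0%, and Stab1 did not differ beyond the spread between replicates. The 8 lower genes include Cd163, which passed the filter on low counts only in the group where it was higher. Its call is therefore no support.

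The cells were macrophages grown from the bone marrow (BMMs) of C57BL/6 mice aged 8 to 10 weeks, kept for 7 days with L929-conditioned media, a source of M-CSF, and primed overnight with IFNγ at 10 ng/mL. All groups were activated with Salmonella LPS at 100 ng/mL together with immune complexes of ovalbumin and rabbit IgG (LPS/ICs). They differed in the presence of the γ-secretase inhibitor (GSI) DAPT at 25 µM or of its vehicle DMSO at 0.01%, given overnight ahead of activation by the study's methods, with 2 replicates per group. Figure legends of the study give a much shorter pretreatment for other experiments, so the length of exposure is not certain. γ-Secretase cuts Notch receptors and many other membrane proteins, so that a GSI is not specific to Notch. Neither unstimulated cells nor cells with a deletion of a Notch pathway gene were among the libraries used here. The labels do not say whether the replicates came from separate cultures or animals, so the p-values measure only the spread between these libraries, which may be technical.

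The receptors differ in structure and cargo. Class A receptors (Msr1, Marco) are trimers with collagen-like stalks that bind modified LDL and bacteria. Class B receptors (Cd36, Scarb1, Scarb2) span the membrane at both ends and bind lipids, HDL or lysosomal enzymes. Olr1 and Mrc1 carry C-type lectin domains, Cd163 binds complexes of haemoglobin and haptoglobin, Stab1 is a large receptor of resident and alternatively activated macrophages, and Lrp1 is an endocytic receptor of the LDL receptor family. Mrc1 and Cd163 are commonly used as markers of alternatively activated macrophages.

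The 4 libraries held 42694655 to 56932059 counts, so that a gene without any count could still be present at up to 3 counts, or 0.0527 to 0.0703 counts per 1000000 (CPM), from counting error alone. All 9 macrophage markers examined were expressed, and the summed level of this list was 13283 and 13457 CPM with DMSO and 10179 and 11193 CPM with GSI. Of these 9 markers 7 were lower and 1 was higher with GSI, and the part of this shift in the results below was not tested. The 8 erythroid and mast cell markers and 7 of 8 lymphocyte markers had at most 3 counts in every library, with summed levels of 0.0232 to 0.0810 CPM and 0.385 to 0.558 CPM. The summed neutrophil markers were 0.697 and 1.43 CPM with DMSO and 1.12 and 1.40 CPM with GSI. At most 3 counts in every library were also found for the neutrophil markers Ly6g, Mpo and Elane, the dendritic cell markers Flt3, Cd209a and Siglech, and the stromal markers Col1a1, Col1a2, Col3a1 and Pdgfra. The summed dendritic cell markers, carried mostly by Clec9a, were 221.7 and 214.5 CPM with DMSO and 133.3 and 135.7 CPM with GSI. The summed stromal and endothelial markers, carried mostly by Kdr, were 12.7 and 12.5 CPM with DMSO and 34.7 and 32.0 CPM with GSI. The targets Hes1 and Hey1 of Notch had at most 5 counts in any library, so neither could serve as a check of the inhibitor. Of 10 Notch pathway genes 6 were tested and 4 were lower, among them Notch1 (log2 fold change -0.64) and the ligand genes Jag1 (-0.74) and Jag2 (-1.74), the last with 94 and 147 counts against 36 and 34.

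Genes were compared with edgeR's quasi-likelihood test across 13211 genes, with Benjamini-Hochberg adjustment (FDR) and a call at an FDR under 0.05. Log2 fold changes are GSI against DMSO, and ± gives the SD of 2 libraries. Of the 10 receptor genes 8 were called lower, where 21.9% of all tested genes were, and 1 was called higher, where 19.0% were. Their median log2 fold change was -0.82, against 0.01 for all tested genes. Medians below 0 were also found for the 5 tested dendritic cell markers (-0.69), the 6 tested Notch pathway genes (-0.52) and the 9 macrophage markers (-0.43), whose part in the result was not tested. For 8 of the 10 genes both GSI libraries lay below both DMSO libraries (34.8% of all tested genes) and for Marco both lay above (35.8%), so that groups were apart for 9 genes (70.6%). With the additional demand of an absolute log2 fold change above 1.5, 3 receptor genes remained, where 2.91% of all tested genes did. Olr1 and Cd163 were lower past that threshold, as were 2.17% of all genes, and Marco was higher, as were 0.742%. Cd163 passed the filter on low counts only through its DMSO libraries, the group where it was higher, so its call is no support. Without it 7 of 9 genes were lower, the median log2 fold change was -0.73, and Olr1 and Marco were past the fold threshold. Because the libraries were made from bulk RNA, fewer cells that express a gene and less RNA per cell cannot be told apart.

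**Figure D1:**
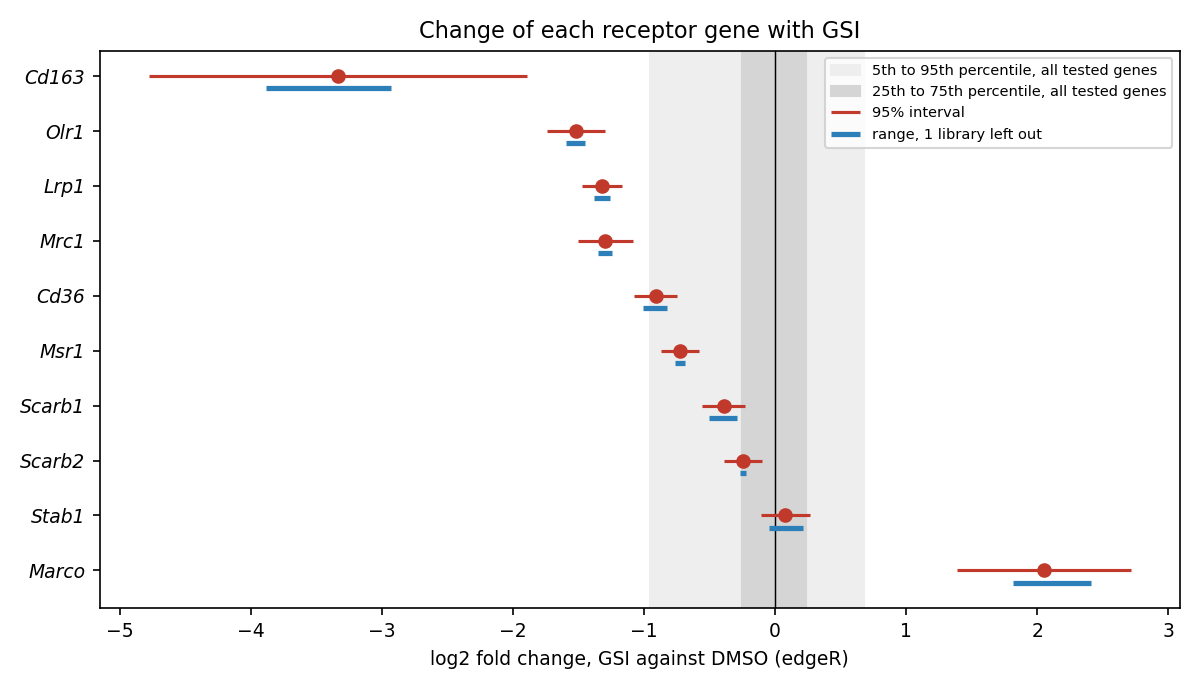
Log2 fold change of each receptor gene with GSI against DMSO (points), its 95% interval from edgeR (red lines) and its range when 1 of the 4 libraries was left out (blue lines), over the central ranges of all 13211 tested genes (grey bands). Cd163, Olr1, Lrp1 and Mrc1 lie below the 5th percentile of all genes, at -0.96, and Marco lies above the 95th percentile, at 0.68.

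Lrp1, Cd36, Olr1 and Mrc1 fell and Marco rose, and the promoter sequences of these 5 genes are shown so that their differences can be read. They are the 250 bases before the RefSeq transcription start on GRCm38.p6, on the strand of the gene: chr10:127621149-127621398 (minus strand), chr5:17835897-17836146 (minus), chr6:129507166-129507415 (minus), chr2:14229164-14229413 (plus) and chr1:120505025-120505274 (minus). Capitals mark matches, on either strand, to TGGGAA (the core of RBPJ sites), GAGGAA (PU.1), TGANTCA (AP-1) and AGGTCA (a nuclear receptor half-site).
Lrp1: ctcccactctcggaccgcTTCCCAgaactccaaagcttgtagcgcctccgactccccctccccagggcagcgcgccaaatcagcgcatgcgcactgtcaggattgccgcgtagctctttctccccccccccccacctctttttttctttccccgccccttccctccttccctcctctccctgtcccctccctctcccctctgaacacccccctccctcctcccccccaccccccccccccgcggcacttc
Cd36: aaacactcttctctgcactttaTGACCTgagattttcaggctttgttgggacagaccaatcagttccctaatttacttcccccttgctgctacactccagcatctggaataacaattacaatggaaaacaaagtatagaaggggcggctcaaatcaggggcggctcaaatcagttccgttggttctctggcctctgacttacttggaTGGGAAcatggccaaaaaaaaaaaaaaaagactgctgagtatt
Olr1: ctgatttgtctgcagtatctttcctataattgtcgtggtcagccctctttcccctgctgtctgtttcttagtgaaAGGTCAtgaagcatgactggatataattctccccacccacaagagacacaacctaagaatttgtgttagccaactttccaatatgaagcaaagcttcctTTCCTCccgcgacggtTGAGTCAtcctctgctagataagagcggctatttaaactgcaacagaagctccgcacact
Mrc1: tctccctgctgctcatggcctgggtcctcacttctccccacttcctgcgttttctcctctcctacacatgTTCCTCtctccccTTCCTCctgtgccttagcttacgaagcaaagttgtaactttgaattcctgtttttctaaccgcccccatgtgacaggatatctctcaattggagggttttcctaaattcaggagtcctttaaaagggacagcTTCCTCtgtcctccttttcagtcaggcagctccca
Marco: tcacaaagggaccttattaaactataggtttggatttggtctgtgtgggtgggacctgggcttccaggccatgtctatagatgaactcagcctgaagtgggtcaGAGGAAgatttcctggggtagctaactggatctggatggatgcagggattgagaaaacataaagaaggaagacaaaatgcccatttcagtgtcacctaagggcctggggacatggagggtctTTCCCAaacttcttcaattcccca

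None of the 4 motifs was found in all of these promoters. TGGGAA was found in Lrp1, Cd36 and Marco, that is in genes that fell and in the gene that rose, and in 21.6% of 32851 RefSeq promoter windows of the same length. GAGGAA stood 3 times in Mrc1 and once each in Olr1, Marco and Stab1 (23.3% of all windows). Olr1 held the only TGANTCA among the receptor genes (6.75% of all windows), from -60 to -54 relative to its start, and Olr1 and Cd36 each held an AGGTCA (14.0% of all windows). GC content of the 5 windows shown ranged from 43.2% in Cd36 to 67.2% in Lrp1. RefSeq entries matched 8 of the 10 genes. Those of Cd163 and Scarb2 held none of the 4 motifs, and Msr1 and Scarb1 were not matched. The start used for Cd36 lies 52905 bases downstream of the outermost annotated start of the gene, so this window is one of several possible Cd36 promoters. A match is a run of letters and was not tested for binding.

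Msr1 (ENSMUSG00000025044, chr8:39581685-39642673 on GRCm38, the gene span of GENCODE M21 as for all genes here), the class A receptor for acetylated and oxidized LDL, was one of the more abundant members. It was measured at 301.5 and 308.4 CPM in the DMSO libraries and at 180 and 189 CPM in the GSI libraries. Both GSI libraries lay well below both DMSO libraries, at 60.5% of the DMSO level, which is -0.73 on the log2 scale (standard error 0.0699, edgeR FDR = 6.57e-08). Marco (ENSMUSG00000026390, chr1:120474538-120505024), a class A receptor that binds bacteria and particles, was the only receptor gene to rise. It was rare, with 9 and 18 counts in the DMSO libraries and 58 and 52 counts in the GSI libraries (0.263 ± 0.0764 and 1.13 ± 0.104 CPM, SD of 2 libraries). Its log2 fold change was 2.05 (95% interval 1.39 to 2.71, edgeR FDR = 2.86e-05). On the counts summed over libraries the ratio was 4.16, with an exact interval from 2.71 to 6.59 for counting error. The class A receptors thus moved in opposite directions, Msr1 at 304.9 CPM with DMSO and Marco at 0.263 CPM.

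The 3 class B receptors each fell. Cd36 (ENSMUSG00000002944, chr5:17781690-17888801), which imports long-chain fatty acids and binds oxidized LDL and thrombospondin, had 582 and 559.5 CPM in the DMSO libraries and 284 and 323 CPM in the GSI libraries. The groups were far apart, and the log2 fold change was -0.91 (standard error 0.0769, edgeR FDR = 1.01e-08), or 53.2% of the DMSO level. Scarb1 (ENSMUSG00000037936, chr5:125277087-125341094), the receptor for HDL, had 57.7 and 59.1 CPM with DMSO and 41.2 and 47.7 CPM with GSI. Its fall was smaller, with a log2 fold change of -0.39 (95% interval -0.56 to -0.23, edgeR FDR = 0.000483), and its GSI libraries still lay below its DMSO libraries. Scarb2 (ENSMUSG00000029426, chr5:92441314-92506833) encodes LIMP-2, a protein of the lysosomal membrane that carries β-glucocerebrosidase to lysosomes. It had 223.5 CPM in both libraries with DMSO and 186 and 191 CPM with GSI, a log2 fold change of -0.24 (95% interval -0.39 to -0.10, edgeR FDR = 0.00713). Among all tested genes 25.3% had a lower log2 fold change than Scarb2, 17.2% a lower one than Scarb1 and 5.36% a lower one than Cd36.

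The receptors with C-type lectin domains, Olr1 and Mrc1, were expressed at about 16 CPM or less and both fell. Olr1 (ENSMUSG00000030162, chr6:129485244-129507165) encodes LOX-1, a receptor for oxidized LDL. Its counts were 647 and 883 in the DMSO libraries against 245 and 277 in the GSI libraries, that is 15.0 and 15.6 CPM against 5.07 and 5.61 CPM. Its level with GSI was 34.9% of that with DMSO, a log2 fold change of -1.52 (standard error 0.105, edgeR FDR = 6.19e-10). This value lay just beyond the log2 threshold of 1.5 and moved between -1.59 and -1.45, on both sides of it, with any single library removed. Mrc1 (ENSMUSG00000026712, chr2:14229392-14332057), the mannose receptor CD206, had 16.1 and 15.3 CPM with DMSO and 6.17 and 6.64 CPM with GSI. The log2 fold change was -1.29 (standard error 0.101, edgeR FDR = 3.54e-09), or 40.8% of the DMSO level. In both genes the replicates of a group differed by little and the groups were widely separated.

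Cd163 (ENSMUSG00000008845, chr6:124304656-124330527), the receptor for haemoglobin and haptoglobin, was close to the limit of detection. It had 18 and 15 counts in the DMSO libraries and 2 and 1 counts in the GSI libraries, both GSI libraries being under the limit of 3 counts. The summed counts of 33 and 3 gave a ratio of DMSO to GSI of 10.8, with an exact interval from 3.38 to 54.9 for counting error. The fitted log2 fold change was -3.33 (standard error 0.691) and lay between -3.88 and -2.93 with any single library removed. No FDR is given, since the gene was tested only because it passed the filter in the group where it was higher. Stab1 (ENSMUSG00000042286, chr14:31139013-31168641), stabilin-1, which clears modified LDL and matrix fragments, was the only member without a call. It had 70.5 and 84.7 CPM with DMSO and 75.3 and 88.65 CPM with GSI, so that the groups overlapped. The log2 fold change was 0.08 with a 95% interval from -0.11 to 0.26 (edgeR FDR = 0.519), and its sign turned to -0.05 without DMSO replicate 1 and to -0.04 without GSI replicate 2. Stab1 shares 112 exon bases with Nt5dc2 on the other strand, which had 399 to 508 counts, and no other receptor gene shares exon bases with another gene.

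Lrp1 (ENSMUSG00000040249, chr10:127538161-127621148) takes up α2-macroglobulin, apolipoprotein E and complexes of proteases with their inhibitors, and its protein is itself a known substrate of γ-secretase. Its mRNA reached 22914 and 30099 counts in the DMSO libraries but 9874 and 10948 in the GSI libraries, which is 533 and 530.5 CPM against 204 and 222 CPM. The DMSO replicates were nearly equal and both GSI libraries lay far below them. The log2 fold change of -1.32 (95% interval -1.47 to -1.17, edgeR FDR = 3.25e-11) corresponds to 40.1% of the DMSO level, and its FDR was the lowest of the 10 genes. Of all tested genes 2.70% had a lower log2 fold change.

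**Figure D2:**
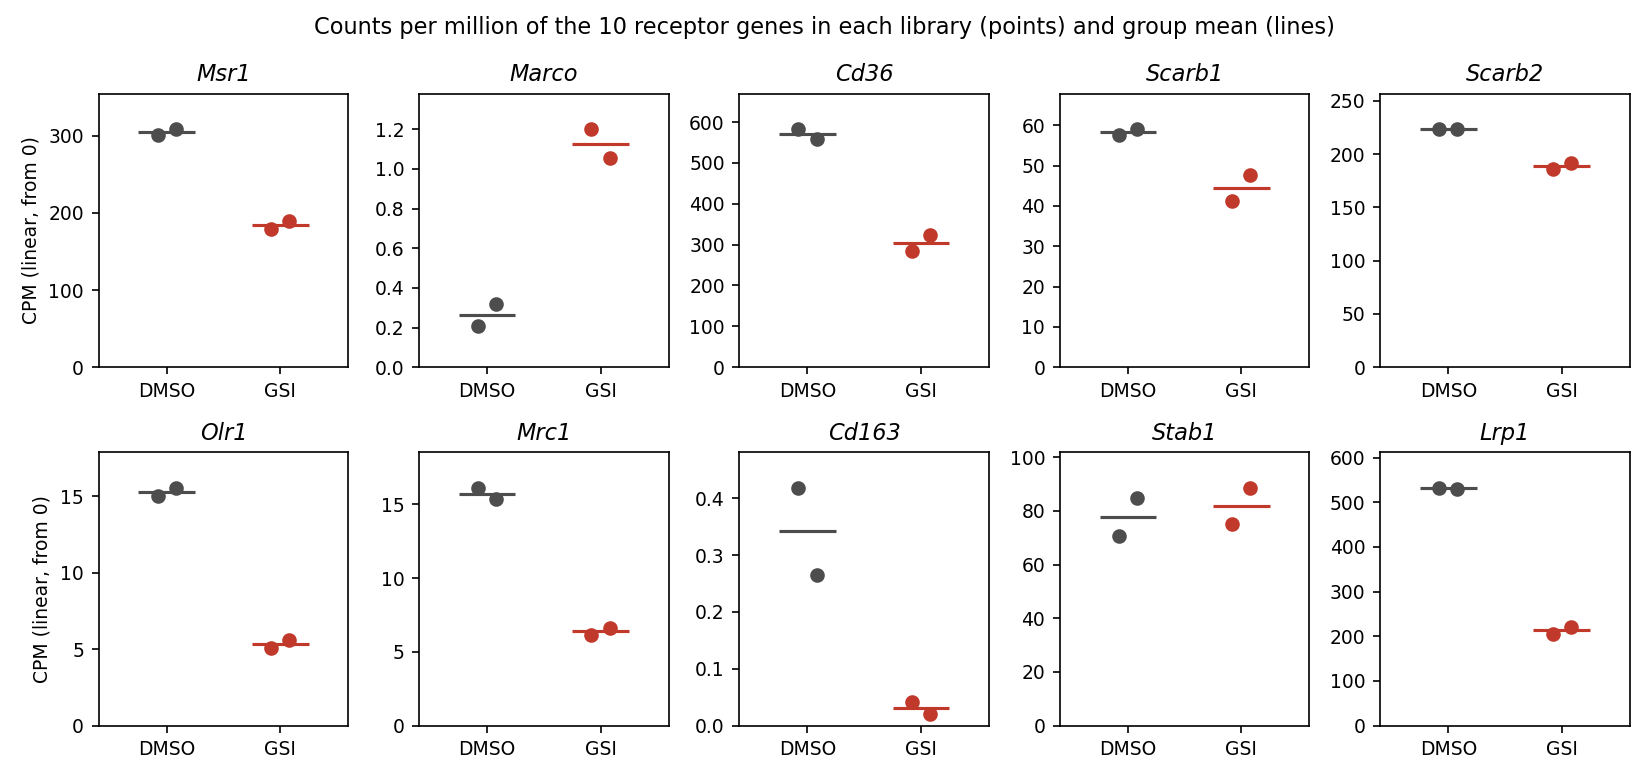
CPM of each receptor gene in the 2 DMSO and the 2 GSI libraries (points) with the mean of each group (lines), each panel with its own linear axis from 0. GSI points lie below the DMSO points in 8 panels, above them in the panel of Marco, and among them in the panel of Stab1.

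Levels of different genes were compared as CPM per kb of exon, with all exons of a gene merged. With DMSO, Cd36 was highest at 159 ± 4.52 (SD, n = 2), followed by Msr1 at 48.1 ± 0.775, Scarb2 at 35.6 ± 0.00787 and Lrp1 at 30.0 ± 0.0823. Stab1 (7.54 ± 0.981) and Scarb1 (6.87 ± 0.111) overlapped between libraries and could not be ordered. Below them came Olr1 at 4.28 ± 0.104 and Mrc1 at 2.47 ± 0.0883, while Marco and Cd163 stood at 0.137 ± 0.0397 and 0.0625 ± 0.0199. With GSI, Cd36 remained highest at 84.5 ± 7.69 CPM per kb. Scarb2 (30.0 ± 0.629) and Msr1 (29.1 ± 1.07) then overlapped, where they had been apart with DMSO. Lrp1, at 12.02 ± 0.696 CPM per kb, moved closer to Stab1 at 7.97 ± 0.919, and Marco reached 0.585 ± 0.0539. The libraries of all other neighbours in either order did not overlap. With the longest annotated transcript as the length, 5 of the 10 genes kept their rank in both groups. Scarb1 then stood above Stab1 in both groups, at 18.9 and 9.70 with DMSO. With GSI the mean of Scarb1 (14.38) was then also about level with that of Lrp1 (14.31). With that length the mean of Msr1 also stayed above that of Scarb2 with GSI (50.7 and 40.1), so that the meeting of these genes depends on the length used.

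**Figure D3:**
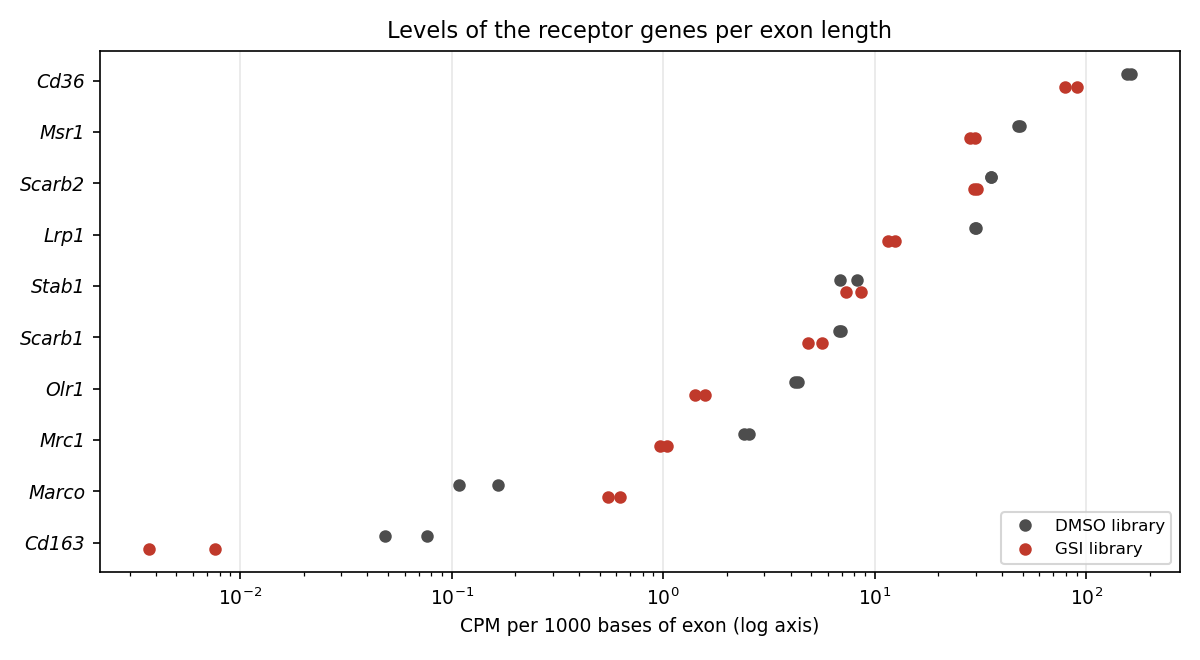
CPM per kb of exon (log axis) of the receptor genes in each DMSO (grey) and GSI (red) library, ordered by the DMSO mean. The genes span from 159 for Cd36 to 0.0625 for Cd163 with DMSO, and the GSI libraries of Scarb2 and Msr1 meet with this length.

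Summed over the 10 genes, the receptors took 1800 and 1797 CPM of the DMSO libraries and 983 and 1075 CPM of the GSI libraries, or 57.2% of the DMSO mean. This sum is carried by few genes, as Cd36, Lrp1, Msr1 and Scarb2 together made up 91.1% and 90.2% of it with DMSO and 86.9% and 86.1% with GSI. Lrp1 made up 29.6% and 29.5% of the sum in DMSO libraries but 20.8% and 20.6% in GSI libraries. The share of Scarb2 was 12.4% in both DMSO libraries and 18.9% and 17.8% with GSI.

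Other scavenger receptors were called in both directions, as were all tested genes, of which 21.9% were lower and 19.0% higher. These shares are to be read beside the counts of each list below. Of 19 further genes of the family, 11 were tested, 3 were lower, 4 were higher and 4 were not called by edgeR, with a median log2 fold change of 0.18, whereas DESeq2 called 3 lower and 2 higher. Clec7a, the β-glucan receptor dectin-1, fell from 260.2 ± 14.1 to 142 ± 3.72 CPM (SD of 2 libraries), or by -0.87 in log2. Colec12, a class A receptor with a lectin domain, fell from 9.56 ± 0.157 to 5.79 ± 0.173 CPM (-0.72). Cd5, counted among the 4 higher genes, had 8 and 12 counts with DMSO and 18 and 23 with GSI, and its call is no support, since it passed the filter in both libraries of the GSI group only. The median of 0.18 includes Cd5. Without it the middle values of the list were -0.03 and 0.18. Among the relatives of Mrc1, Pla2r1, a receptor for secreted phospholipases, fell from 7.51 ± 0.0422 to 4.61 ± 0.446 CPM. Ly75, the endocytic receptor DEC-205, rose from 1.63 ± 0.0664 to 4.88 ± 0.0882 CPM, a log2 fold change of 1.58 against -1.29 for Mrc1.

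Of 18 genes of the LDL receptor family and partners of LRP1, 14 were tested, 2 were lower and 6 were higher, with a median log2 fold change of 0.06. Lrp5, a Wnt co-receptor, fell from 26.9 ± 0.00767 to 14.3 ± 0.508 CPM (-0.91). Dab2, an endocytic adaptor of this receptor family, fell from 168 ± 7.76 to 74.2 ± 1.20 CPM (-1.18). Of 14 lysosomal genes chosen around LIMP-2, 0 were lower and 6 were higher by edgeR, while Scarb2 itself fell. At an unadjusted p under 0.05, 2 of the 14 were lower and 7 higher, and DESeq2 called 0 lower and 6 higher. Cd63, Mcoln1 and Tmem192, all proteins of the lysosomal membrane, rose by 0.51, 0.45 and 0.39 on the log2 scale.

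Genes that handle the lipids delivered by these receptors went both ways, as did all tested genes (21.9% lower and 19.0% higher). Of 19 genes 18 were tested, 4 were lower and 7 were higher, with a median log2 fold change of 0.01. Abca1, the exporter of cholesterol, fell from 89.7 ± 4.74 to 18.4 ± 2.30 CPM (-2.28). The fatty acid-binding proteins Fabp5 and Fabp4 rose from 52.1 ± 4.20 to 159 ± 10.4 CPM (1.61) and from 7.29 ± 1.11 to 16.2 ± 1.43 CPM (1.14). Of 18 receptors and bridging proteins for dying cells, 16 were tested, 6 were lower and 3 were higher, with a median of 0.03. Thbs1, which encodes thrombospondin-1, a ligand of CD36, fell from 119 ± 6.54 to 25.2 ± 3.61 CPM (-2.23). The integrin gene Itgb5 fell from 135 ± 1.604 to 61.8 ± 8.50 CPM (-1.13), and Pros1, a bridge to TAM receptors, fell from 87.0 ± 1.61 to 46.5 ± 3.41 CPM (-0.90). Among the 3 higher genes were those of the TAM receptors Mertk (0.64) and Axl (0.26). Of 11 genes for haem and haemoglobin, which Cd163 delivers to macrophages, 9 were tested, 2 were lower and 2 were higher, with a median of 0.22. Hmox1, haem oxygenase 1, rose from 129 ± 14.0 to 254 ± 15.0 CPM (0.98), and Blvrb, a biliverdin reductase, rose from 104 ± 0.758 to 169.7 ± 13.0 CPM (0.70). Bach1, a repressor of Hmox1, fell from 195 ± 0.172 to 136 ± 1.98 CPM (-0.51).

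**Figure D4:**
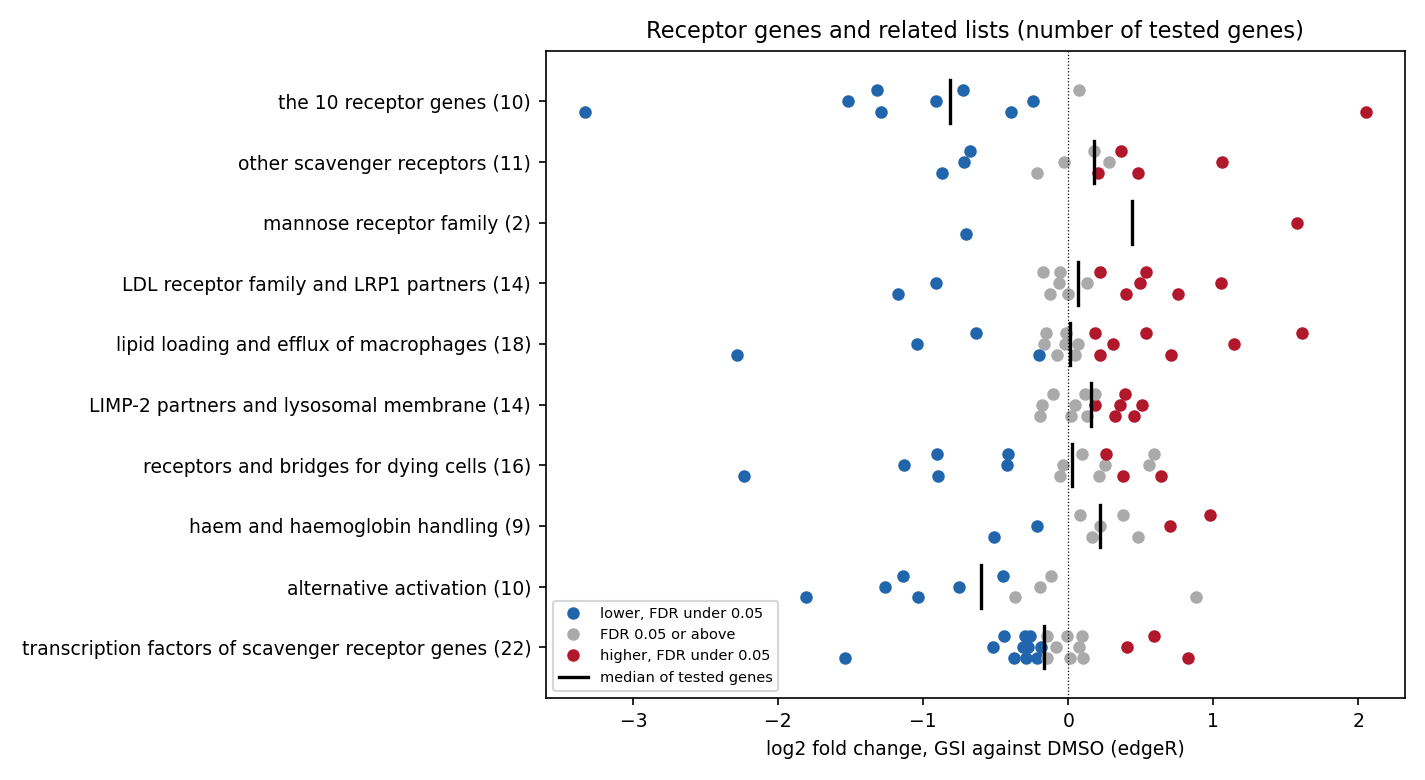
Log2 fold change with GSI of each tested gene (points) in the 10 receptor genes and in 9 related lists, coloured by call at an edgeR FDR under 0.05, with the median of each list (black bars). Among the lists plotted, the medians of the receptor genes (-0.82) and of the alternative activation list (-0.60) are the lowest, and the others lie between -0.17 and 0.44. Each of the lowest medians includes a gene that passed the filter on low counts only through its DMSO libraries. Without that gene they were -0.73 and -0.45.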

How the data were processed

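RNA of 4 libraries, 2 with DMSO and 2 with DAPT, was sequenced by the study from TruSeq stranded mRNA libraries on an Illumina NextSeq instrument. The authors trimmed reads with Trimmomatic, aligned them to mm10 with STAR (2.5.0a in the submitters' processing notes, which also list mm9) and deposited raw HTSeq counts per gene. The strand setting of HTSeq was not given in the sources used here. Each replicate came as 4 run columns. Runs of a replicate differed by no more than sampling noise (chi-square per degree of freedom 1.01 to 1.03), whereas replicates did not (14.7 and 16.6), so runs were summed to libraries of 42694655 to 56932059 counts.

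Genes were filtered with edgeR 4.0.16 (R 4.3.3; filterByExpr, near 0.204 CPM in 2 libraries), normalized by TMM and tested by quasi-likelihood on group alone, with Benjamini-Hochberg adjustment over 13211 genes. CPM were divided by merged exon length from GENCODE M21 to compare genes. Intervals on summed counts are exact conditional binomial 95% intervals. Of 47069 gene IDs 46574 were found in GENCODE M21. Promoters came from RefSeq.

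The receptor genes, gene lists, motifs and tests were chosen with earlier results of these data known. Beside the 10 receptor genes, the text names up to 3 genes per list, those with the largest absolute log2 fold change among genes at an FDR under 0.05 whose groups did not overlap, and defining markers. Some genes that this rule names are not reported here. Alternatives were RLE factors or none, DESeq2 1.42.0, other count filters, a replicate block, runs as samples, leaving out each library, a fold threshold and another gene length.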

Additional observations from a re-analysis of the deposited data

How the results depend on the processing

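By edgeR, 5392 genes, 9 of the 10 receptor genes and 71 genes of the 10 other lists, marker lists not counted, were called. The counts of 9 receptor genes here and below include Cd163, whose call is no support. Across the alternatives 104 of 106 log2 fold changes of receptor genes kept their direction and their side of the FDR threshold of 0.05. The exceptions were those of Stab1, never called, at -0.0494 without DMSO replicate 1 and -0.0445 without DAPT replicate 2. An absolute log2 fold change above 1.5 left 385 genes, 3 receptor genes and, in a count chosen after seeing the data, 7 genes of the other lists. Olr1 was no longer past this fold threshold without DMSO replicate 2 (-1.496) or without DAPT replicate 1 (-1.448). Leaving out 1 library, with the lone library of a group assumed to vary like the others, left 4162 to 4978 genes and 9 receptor genes. DESeq2 called 4033 genes and 9 receptor genes. Under a minimum of 10 counts per library Marco and Cd163 were not tested, and the other 7 calls remained. With the 16 runs taken as separate samples 7582 genes were called, and again Marco and Cd163 were not tested and 7 receptor genes were called. With the longest transcript as length, 5 genes kept their rank.

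With the replicate number as a block, 6444 genes, 9 receptor genes and 80 genes of the other lists were called. Same-numbered libraries deviated together with a correlation of 0.21 over 10152 genes. With only 2 pairs this does not show that numbers pair the samples, and the block changed no call of a receptor gene. Depth limits Cd163 and Marco, and 2 libraries per group limit every estimate of spread.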

Other observations

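Among genes of alternative activation, the programme with which Mrc1 and Cd163 are usually grouped, 6 of 10 tested genes were lower with GSI and 4 were not called, with a median log2 fold change of -0.60. By edgeR 0 were higher, 1 was higher at an unadjusted p under 0.05, and DESeq2 called 5 lower and 0 higher. Of the 6 lower genes 1 passed the filter on low counts only through its DMSO libraries, the group where it was higher, so its call is no support. Without this gene the median of the list was -0.45, against -0.43 for the 9 macrophage markers. Il10, the anti-inflammatory cytokine, fell from 333 ± 33.7 to 95.04 ± 21.8 CPM (SD of 2 libraries), that is by -1.81 in log2. The chemokine gene Ccl22 fell from 44.0 ± 4.04 to 20.0 ± 3.17 CPM (-1.14). Retnla, another gene of this programme, was at 0 in all 4 libraries. Several others were rare as well. Ccl17 had at most 1 count and Ccl24 2 to 5 counts per library, and neither was tested. Mgl2 had 11 to 18 and Chil3 15 to 26 counts, and neither was called.

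Of 23 genes for transcription factors associated with scavenger receptor genes, 22 were tested, 11 were lower, 3 were higher and 8 were not called, with a median log2 fold change of -0.17. Irf4, a factor of alternative activation, fell from 31.2 ± 0.165 to 10.7 ± 0.823 CPM (-1.54). Nr1h3, which encodes the oxysterol receptor LXRα, rose from 30.9 ± 1.20 to 54.8 ± 0.518 CPM (0.83), whereas its target gene Abca1 fell (-2.28). Srebf2, the regulator of cholesterol synthesis, rose from 55.9 ± 5.30 to 84.3 ± 0.117 CPM (0.59). The macrophage factor gene Spi1 (PU.1) and Pparg, named after their values were seen because they are linked to Cd36, stood at -0.01 (not called) and -0.29 (called lower). No relation between the factors and the receptors was tested.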
